A study of Homo sapiens with 2 samples.

Results

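Of the 8608 ING5 peaks in HepG2 cells, 722 had their summit in an intron of a protein-coding gene and more than 1000 bp from every annotated transcription start site (TSS) of a protein-coding or lncRNA gene. The 1 ING5 library came from untreated HepG2 cells, a human line labelled as liver tissue, precipitated with an antibody against ING5. The input library was DNA of the same untreated cells without antibody, and it served as the control of the peak caller. The summit decided the class, so a peak could still extend towards a start or an exon. Peaks on chromosomes 1 to 22 and X were considered, without chromosome 5 up to position 46000000 and chromosome 11 between 3000000 and 5000000. That left 8117 peaks, and the 722 intronic ones made up 8.89% of them (95% exact binomial interval 8.28 to 9.54). They lay in 560 genes, counting 1 host per peak.

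ING5 is a plant homeodomain protein that binds methylated histone H3 and works as a subunit of MYST histone acetyltransferase complexes. It is best known from promoters of transcribed genes. Introns hold enhancers, alternative promoters and silent sequence, and the first intron of many genes carries promoter-type chromatin in its 5′ part. A peak list gives neither expression nor acetylation, so the values here describe where ING5 fragments gathered and how many. The caller counted 12416160 ING5 fragments and 9915170 input fragments. Each kind had 1 library, so replicate error is unknown and nothing was tested between conditions, and all intervals cover counting error only. Positions are read as GRCh38.

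GENCODE starts defined the distance rule, and RefSeq lists some starts that GENCODE does not. Of the 708 intronic peaks on chromosomes that the RefSeq window table holds, 21 (2.97%) had their summit within 1000 bp of a RefSeq start. The following RefSeq windows, which run from 250 bases before a start to 50 bases from it on, are shown because they carry part of such a peak. They are GRCh38.p14 sequences, written 5′ to 3′ on the strand of the named gene, with the bases inside the ING5 peak in capitals.
LOC401261, chr6:42783246-42783545, plus strand: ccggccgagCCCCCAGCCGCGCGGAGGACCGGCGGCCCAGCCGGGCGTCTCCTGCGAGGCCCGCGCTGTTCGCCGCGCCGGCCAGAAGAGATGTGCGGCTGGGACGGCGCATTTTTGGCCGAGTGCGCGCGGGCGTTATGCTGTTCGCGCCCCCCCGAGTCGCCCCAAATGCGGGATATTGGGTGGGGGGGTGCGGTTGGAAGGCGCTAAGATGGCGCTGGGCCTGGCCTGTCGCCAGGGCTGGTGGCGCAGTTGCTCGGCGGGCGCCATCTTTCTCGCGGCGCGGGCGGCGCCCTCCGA
PDE8B, chr5:77180054-77180353, plus strand: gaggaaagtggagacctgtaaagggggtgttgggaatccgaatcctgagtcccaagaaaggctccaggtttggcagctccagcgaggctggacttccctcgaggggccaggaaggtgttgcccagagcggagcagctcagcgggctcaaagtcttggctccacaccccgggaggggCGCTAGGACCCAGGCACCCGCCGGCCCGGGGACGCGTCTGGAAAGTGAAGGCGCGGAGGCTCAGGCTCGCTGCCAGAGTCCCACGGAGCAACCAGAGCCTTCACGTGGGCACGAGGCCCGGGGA
FOXF2-DT, chr6:1391010-1391309, minus strand: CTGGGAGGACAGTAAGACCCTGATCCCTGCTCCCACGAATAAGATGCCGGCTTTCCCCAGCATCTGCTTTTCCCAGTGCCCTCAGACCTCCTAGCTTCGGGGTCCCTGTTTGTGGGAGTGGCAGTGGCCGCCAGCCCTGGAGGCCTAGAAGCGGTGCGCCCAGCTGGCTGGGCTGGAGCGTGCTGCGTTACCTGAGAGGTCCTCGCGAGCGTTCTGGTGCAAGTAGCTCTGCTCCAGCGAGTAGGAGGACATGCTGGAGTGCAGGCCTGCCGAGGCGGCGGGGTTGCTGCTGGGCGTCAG
GTF2IRD1, chr7:74454129-74454428, plus strand: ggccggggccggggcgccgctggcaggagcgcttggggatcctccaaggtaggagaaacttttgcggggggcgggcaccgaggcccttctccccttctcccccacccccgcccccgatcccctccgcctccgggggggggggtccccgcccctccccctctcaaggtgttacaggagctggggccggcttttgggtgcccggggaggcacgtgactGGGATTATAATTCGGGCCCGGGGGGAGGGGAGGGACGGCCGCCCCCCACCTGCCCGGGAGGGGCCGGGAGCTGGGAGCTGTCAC
DAB1, chr1:58250454-58250753, minus strand: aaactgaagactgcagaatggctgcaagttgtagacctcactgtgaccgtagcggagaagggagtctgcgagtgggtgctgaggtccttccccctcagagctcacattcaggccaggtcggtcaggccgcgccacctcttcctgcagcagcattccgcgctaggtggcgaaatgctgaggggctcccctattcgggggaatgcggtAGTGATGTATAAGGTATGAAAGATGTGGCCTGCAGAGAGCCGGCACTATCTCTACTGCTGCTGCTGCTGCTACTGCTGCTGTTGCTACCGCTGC
The peak in the first intron of BICRAL covered 291 of the 300 bases of the LOC401261 window, with 23 fragments at a summit 130 bp from that RefSeq start and 1574 bp from the nearest GENCODE TSS. The PDE8B window, of a cyclic nucleotide phosphodiesterase gene, held 124 bases of a peak with 17 fragments. Its summit lay 321 bp from the RefSeq start and 29824 bp from a GENCODE TSS, inside an overlapping protein-coding gene that carries only an identifier, ENSG00000284762. The FOXF2-DT window was covered whole by a peak with 11 fragments in the first intron of FOXF2, a forkhead factor gene. The peak in GTF2IRD1, a transcription factor gene, covered 84 bases of its window and reached 28 fragments 631 bp from the RefSeq start. In DAB1, which encodes an adaptor of reelin signalling, a peak of 9 fragments lay 6 bp from the RefSeq start but 190370 bp from the nearest GENCODE TSS.

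MicroRNA hairpins in the RefSeq table lay within 1000 bp of 6 summits, and 2 of these hairpins were inside the peak. Their mature sequences are given with the seed, bases 2 to 8, in capitals.
hsa-miR-4505: aGGCUGGGcugggacgga
hsa-miR-6775-5p: uCGGGGCAugggggagggaggcugg
hsa-miR-6775-3p: aGGCCCUGuccucugccccag
The hairpin MIR4505, chr14:73758747-73758819, lay in the first-intron peak of MIDEAS, a deacetylase complex gene, 397 bp from a summit of 19 fragments and on the strand opposite to MIDEAS. The hairpin MIR6775, chr16:87834592-87834660, lay 12 bp from a summit of 12 fragments in intron 8 of SLC7A5, on the strand of its host. The other 4 hairpins lay outside the peak. They were MIR6821 at 975 bp from the PIM3 summit, MIR4492 at 876 bp in BCL9L, MIR6720 at 963 bp in FOXF2 and MIR3186 at 649 bp in BAHCC1. These distances place the hairpins and say nothing of their transcription.

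The intronic peaks were low and short. Their median pileup, the number of fragments over the summit, was 10 (95% order-statistic interval 9 to 10), with quartiles of 8 and 11 and a range of 7 to 42. Peaks at protein-coding starts had a median of 12 fragments, and the 459 intergenic and 232 exonic peaks a median of 10 each. The authors' fold enrichment over local background had a median of 5.40 in the intronic peaks, 5.42 in intergenic peaks, 5.74 in exonic peaks and 6.66 in the 6388 peaks at protein-coding starts. The median length was 243 bp (235 to 251) for intronic peaks, 252 bp for intergenic, 266.5 bp for exonic and 364 bp for peaks at protein-coding starts. Of the intronic peaks, 67.5% were shorter than 300 bp, against 2365 of the 6388 at protein-coding starts. Only 17 intronic peaks (2.35%, 1.38 to 3.74) reached 20 fragments, against 8.28% (5.93 to 11.2) of intergenic and 9.99% of protein-coding start peaks. Among the 1000 most significant of the 8117 peaks, 23 were intronic, or 3.19% of the intronic peaks. The same share was 12.3% over all 8117 peaks, 7.63% of intergenic, 10.3% of exonic and 13.7% of protein-coding start peaks.

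**Figure D1:**
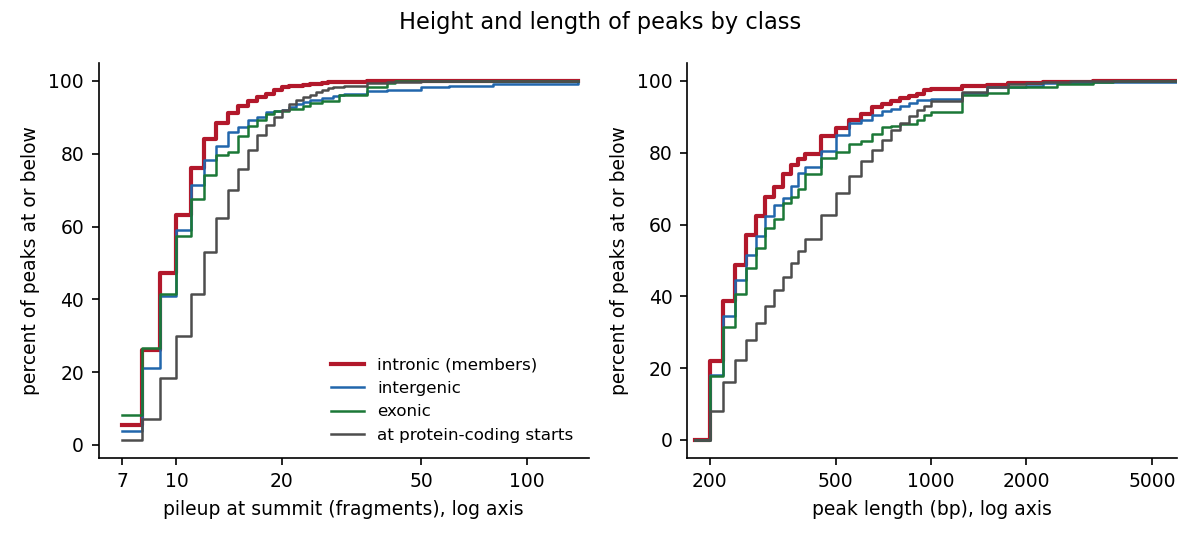
Cumulative percent of peaks by pileup at the summit (fragments, left) and by length (bp, right), both on log axes, for intronic, intergenic and exonic peaks away from starts and for peaks at protein-coding starts. The intronic curve lies furthest left over most of both ranges, with 63.3% of its peaks at 10 fragments or fewer against 29.9% at protein-coding starts.

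Most of the intronic peaks stood on the lowest local background of the list. This background, 0.853 fragments, held for 522 of the 722 peaks (72.3%, 68.9 to 75.5), against 69.0% (62.6 to 74.9) in exonic peaks, 62.7% (58.1 to 67.2) in intergenic peaks and 62.7% (61.5 to 63.9) at protein-coding starts. The intronic and exonic intervals overlapped. The highest local background of an intronic peak, 4.38 fragments, was under a peak of TRPC6, a cation channel gene, which had 24 fragments and a fold enrichment of only 4.64. A pileup of 24 fragments in RNF168, over the lowest background, gave 13.5-fold. Length and height went together, with a Spearman correlation of 0.450 between pileup and length over the 722 peaks of this library.

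Intronic peaks thinned out steeply with distance from a TSS. The median distance to the nearest TSS was 2317.5 bp (2108 to 2524), and 310 peaks (42.9%) lay within 2000 bp, just beyond the limit of the rule. Per Mb of intronic sequence that the rule admits, there were 5.51 peaks (95% Poisson interval 4.80 to 6.30) between 1000 and 1500 bp from a TSS. The rate was 2.58 (2.08 to 3.16) between 1500 and 2000 bp, 0.689 (0.540 to 0.867) between 3000 and 5000 bp, 0.311 (0.241 to 0.396) between 10000 and 20000 bp and 0.0784 (0.0288 to 0.171) beyond 100000 bp. The 1088.25 Mb of admitted intronic sequence held 0.663 peaks per Mb on the whole. The 2 nearest bins made up 3.62% and 3.31% of that sequence and held 30.1% and 12.9% of the peaks.

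The excess over intergenic sequence lay close to starts. Between 1000 and 1500 bp, the intronic rate of 5.51 per Mb stood against 2.67 (2.0 to 3.49) in intergenic sequence. Between 2000 and 3000 bp the rates were 1.77 (1.46 to 2.13) in introns and 1.00 (0.705 to 1.38) in intergenic sequence, and these intervals did not overlap. From 3000 bp on the intervals overlapped in every bin, with 0.463 in introns and 0.554 in intergenic sequence between 5000 and 10000 bp. The Poisson intervals count each peak as independent, but peaks ran together in some hosts. SLC7A5 alone held peaks at 2215, 2244, 2252, 2254 and 2930 bp from a TSS. The intervals can thus be too narrow, and the gap between them from 2000 to 3000 bp was small. The difference between the 2 rates was not tested, since peaks of 1 library are not replicates.

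**Figure D2:**
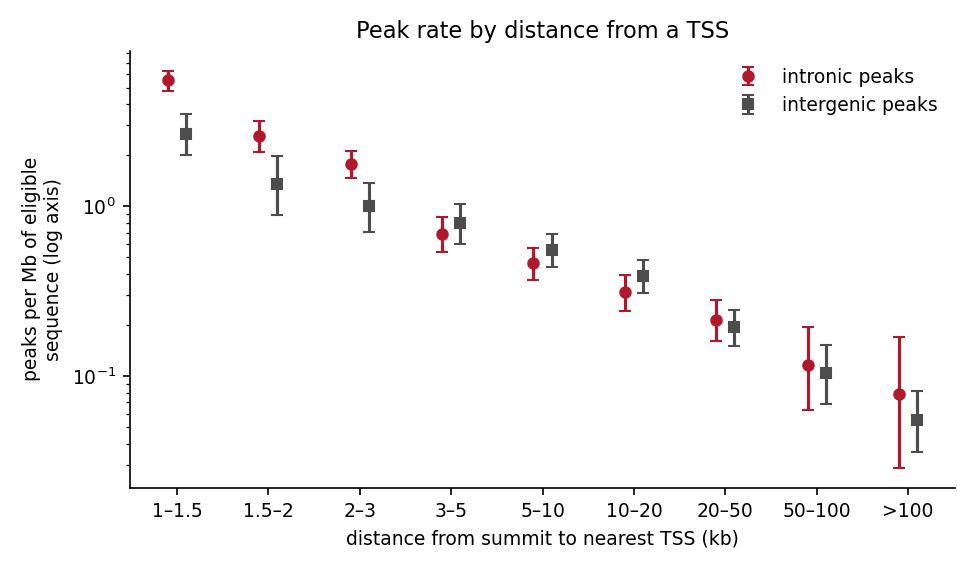
Peaks per Mb of eligible sequence (log axis) against distance from the summit to the nearest TSS (kb), for intronic peaks (circles) and intergenic peaks (squares); bars are 95% Poisson intervals. Both rates fell with distance. The intronic rate lay above the intergenic one by more than the intervals only in the 3 nearest bins, up to 3000 bp. The intervals count each peak as independent, although peaks ran together in some hosts.

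Peaks near a TSS were also the taller ones. The median pileup was 11 fragments in the bins up to 2000 bp and 9 fragments in each bin beyond. The median length was 273 bp between 1000 and 1500 bp and 210.5 bp between 10000 and 20000 bp. Of the 17 peaks with 20 or more fragments, 14 lay within 2000 bp of a TSS. Over all 722 peaks the Spearman correlation with distance was −0.292 for pileup and −0.275 for length. Just outside the limit, at 1004, 1006 and 1007 bp, peaks in FAM83A, IFNGR2 and CUEDC1 had 8, 9 and 10 fragments. Just inside it, at 998, 997 and 996 bp, peaks in MAP4, CYP27C1 and TIMP2 had 11, 12 and 13 fragments. So few peaks cannot show a change at the limit, and the 217 peaks between 1000 and 1500 bp had a median of 11 fragments. The 3104 summits that lay in an intron within 1000 bp of a TSS had a median of 12 fragments and a median length of 367 bp.

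First introns held more than their share of sequence would give, most of all near starts. Read on canonical transcripts, where a peak counts once for each host whose transcript holds it, 377 of 696 placements (54.2%) were in intron 1, which makes up 24.3% of the admitted sequence. The rate per Mb was 1.57 (1.42 to 1.74) in intron 1, 0.703 (0.576 to 0.850) in intron 2 and 0.410 (0.298 to 0.551) in intron 3. From intron 4 on it stayed between 0.328 and 0.359. Within 2000 bp of a TSS, intron 1 held 72.8% of placements (67.4 to 77.7) against 28.0% of the admitted sequence there. Between 2000 and 10000 bp the shares were 47.5% of placements (41.2 to 53.8) and 26.5% of the sequence. Beyond 10000 bp it held 24.6% (17.6 to 32.8) against 22.6% of the sequence.

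**Figure D3:**
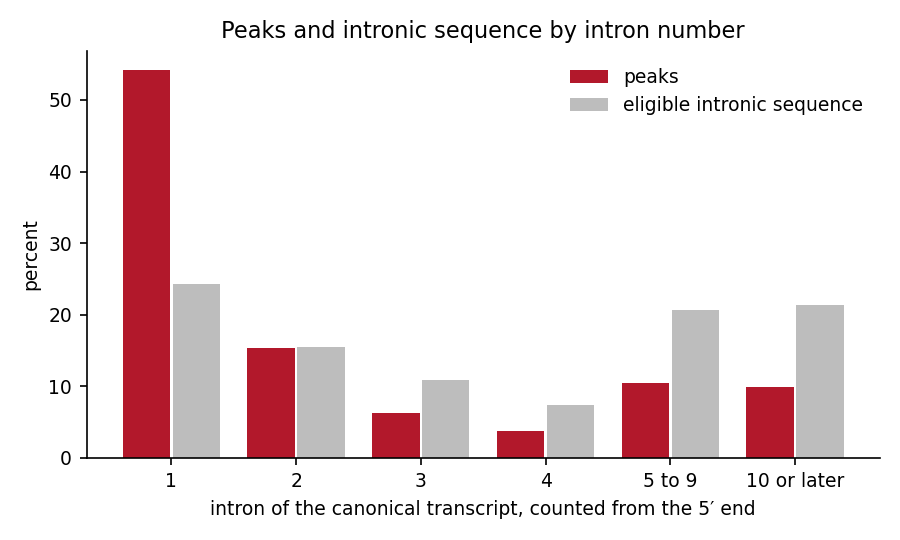
Percent of the 696 placements of intronic peaks on canonical transcripts (red, labelled peaks) and of eligible intronic sequence (grey) by intron, counted from the 5′ end. A peak counts once for each host whose canonical transcript holds it. Intron 1 held 54.2% of the placements and 24.3% of the sequence. Introns 10 and later held 9.91% of the placements and 21.4% of the sequence.

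The peaks near starts lay mostly on the downstream side. Within 2000 bp of a TSS, 240 of 310 summits (77.4%, 72.4 to 82.0) were downstream of it, against 55.8% of the admitted sequence. Beyond 10000 bp, 59.0% (50.3 to 67.3) were downstream, against 58.7% of the sequence. The nearest TSS belonged to the host gene for 590 peaks (81.7%) and to a lncRNA for 95 (13.2%). It was the start of a canonical transcript, of any gene, for only 200 peaks (27.7%). Most distances were thus measured to starts of noncanonical transcripts, which can lie close to the canonical start or far from it. The MIDEAS summit lay 1082 bp from its nearest TSS and 1087 bp from the canonical one. For the taller BCL9L peak these distances were 1072 and 16094 bp. Within the gene body, the median position was 31.4% of the way from the 5′ end (27.6 to 35.1). Peaks in intron 1 had a median length of 265 bp (252 to 288), against 224 bp (216 to 231) in later introns, and median pileups of 10 and 9 fragments.

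The tallest intronic peak lay in PIM3, which encodes a serine/threonine kinase. It covered chr22:49961078-49962225 and had 42 fragments, 23.2-fold over background, with its summit in intron 4, 80 bp from the exon before it and 1119 bp downstream of the canonical TSS. This gene is 3305 bp long, so the whole body is close to its start. The best promoter peak of PIM3 had 13 fragments, fewer than the intronic one. The intronic peak touched an exon, and its edge reached within 1000 bp of a TSS.

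EGFR, the epidermal growth factor receptor gene, came second. Its peak in intron 1 covered 2165 bp, chr7:55019146-55021310, with 33 fragments and 18.3-fold enrichment at a summit 1145 bp from a TSS. A second peak in the same intron, 1772 bp from the first, had 17 fragments. No summit lay within 1000 bp of an EGFR TSS, but the longer peak extended over a TSS. GTF2IRD1 also held 2 peaks, with 28 fragments and 15.6-fold 1040 bp from a TSS, a second peak of 16 fragments 25692 bp away in the same intron, and no promoter summit.

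The hosts of the other tall peaks have varied roles. RCC1, the exchange factor gene of the RAN GTPase, had 27 fragments in intron 2 in a peak of 3128 bp that covered a TSS. RNF168, a ubiquitin ligase gene of the DNA damage response, had 24 fragments and 13.5-fold in intron 1, in a peak that covered a TSS, beside 2 lower peaks in the same intron and no promoter summit. MIB1, a ubiquitin ligase gene of Notch signalling, had 21 fragments and 11.9-fold. SBNO2 and BICRAL, a SWI/SNF subunit gene, had 23 fragments each and 10.7-fold, over a raised local background of 1.25. SKI and SMAD3, a repressor and an effector of TGF-beta signalling, had 20 fragments each, as did BCL9L, a coactivator gene of beta-catenin. The next group, MIDEAS, the nuclear receptor gene NR4A2 and ZSWIM6, had 19 fragments each. ARHGAP35, a GTPase-activating protein gene, the homeodomain factor gene PKNOX1 and POLH, a translesion polymerase gene, had 18 each. ZFHX3, a zinc finger homeodomain factor gene, had 20 fragments over a background of 1.25.

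Of the 17 peaks with 20 or more fragments, 2 lay far from any start. In ENSG00000286221, a protein-coding gene on chromosome 16 that carries only an identifier, a peak of 26 fragments and 14.6-fold covered chr16:80931917-80932811. Its summit was 39802 bp from the nearest TSS, that of the lncRNA gene ARLNC1. The second was the TRPC6 peak of 24 fragments on the raised background, 48760 bp from a TSS. Beside the peak near ARLNC1, the other 19 of the 20 most significant intronic peaks lay between 1028 and 2360 bp from a TSS.

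Only 20 peaks (2.77%) lay more than 50000 bp from every GENCODE TSS, and 19 of them had 7 to 11 fragments. The farthest was in CALN1, a calcium-binding protein gene, 360409 bp from a TSS, with 9 fragments over 200 bp. Next in distance came DAB1, TBC1D22A, STS, the steroid sulfatase gene, and CAMTA1, a calmodulin-binding transcription activator gene, with 9, 11, 8 and 8 fragments. TBC1D22A lay 180034 bp, STS 125267 bp and CAMTA1 102712 bp from a TSS. The DAB1 summit, as given above, lay 6 bp from a RefSeq start. Of the 20 peaks, 19 had no other peak within 50000 bp; the exception, also the tallest of the 20, was a second TRPC6 peak of 17 fragments, whose neighbour lay 6506 bp away.

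Genes with an intronic peak had a promoter peak more often than protein-coding genes at large. Of the 560 hosts, 334 (59.6%, 55.4 to 63.7) had a summit within 1000 bp of one of their own TSSs. The share over all 19624 protein-coding genes outside the left-out blocks was 30.8%. Alternative starts inside a gene count here, and hosts were longer than genes at large, as given below. The 2 shares were not compared at equal gene length or number of TSSs. The share of hosts was 49.5% (44.7 to 54.4) with peaks on the lowest background alone, and 38.3% (35.6 to 41.1) with a limit and promoter window of 500 bp; the share over all genes was not computed for either setting. Hosts of peaks within 2000 bp of a TSS had a promoter summit in 67.1% of cases (61.4 to 72.5), and hosts of peaks beyond 10000 bp in 39.7% (30.7 to 49.2). Read from the other side, 5.83% of the 6035 genes with a promoter peak held an intronic peak, against 1.74% of the 13589 genes without one. Over all protein-coding genes the share with an intronic peak was 3.0%.

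The intronic peak was most often the lower one. Among the 459 peaks whose host had a promoter summit, the median pileup was 10 fragments for the intronic peak. It was 16 (15 to 17) for the best promoter peak of the host. In 54 of the 459 cases (11.8%, 8.96 to 15.1) the intronic peak was taller, and in 23 it was equal. The 459 peaks lie in 334 hosts, so 1 promoter value can enter several times, 17 times for SLC7A5. The intervals do not allow for this. The best promoter peak was the tallest of several in some hosts, such as 6 in LAMA5, which favours the promoter side. Besides PIM3, MIDEAS had 19 intronic against 12 promoter fragments, and ZSWIM6 19 against 12. The intronic peaks of PIM3 and MIDEAS reached within 1000 bp of a TSS with an edge, and that of ZSWIM6 did not. RCC1 had 27 against 14 and SBNO2 23 against 18, but these 2 intronic peaks extended over a TSS themselves. At the other end TFAP2A, a developmental transcription factor gene, had 13 fragments in intron 2 and 118 at its promoter. Intronic peaks in hosts with a promoter summit had a median length of 249 bp (240 to 261), and those in hosts without one 233 bp (224 to 245).

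**Figure D4:**
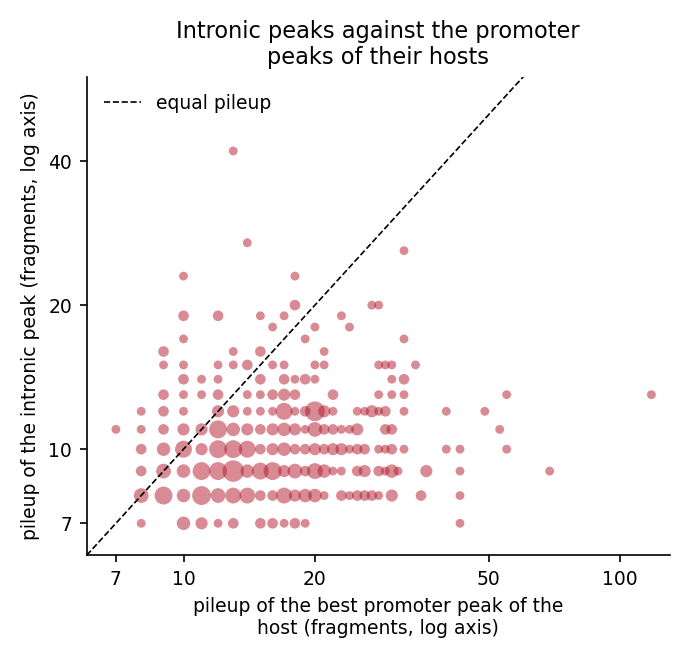
Pileup of each intronic peak against the best promoter peak of its host (fragments, both axes log), for the 459 peaks whose host has one; larger circles hold more peaks, and the dashed line marks equal pileup. Most points lie below the line, and PIM3 stands highest, with 42 intronic and 13 promoter fragments.

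Hosts were longer than other genes. Their median length was 55748.5 bp (50093 to 61582), against 27563.5 bp over all protein-coding genes and 32940 bp over genes with a promoter peak. An intronic peak was found in 1.37% of genes up to 20000 bp, 3.69% of genes between 20000 and 100000 bp and 5.23% of genes over 100000 bp. The introns that held peaks had a median length of 12794 bp. Long introns did not hold taller peaks, with a Spearman correlation of 0.0436 between intron length and pileup over the 722 peaks.

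Most hosts, 460 of 560, held 1 intronic peak, 72 held 2 and 28 held 3 or more. SLC7A5, which encodes the light chain of an amino acid transporter, held 17 in a gene body of 39485 bp. They had 8 to 15 fragments, with 8 of them in intron 1, and 13 stood on the lowest background. Counting the 5 other peaks of SLC7A5, at starts and in an exon, its body held 22. The tallest of the 17, with 15 fragments, lay in intron 6, and the promoter peak had 20.

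RXRA, the retinoid X receptor gene that pairs with many liver nuclear receptors, held 10 intronic peaks over 78856 bp. Their pileups ran from 7 to 12 fragments, 9 of them lay in intron 1, and the promoter summit had 13. LAMA5, a laminin chain gene, held 7 intronic peaks with 10 to 26 fragments. Its longest, of 3451 bp in intron 1, was the longest of all 722, and 4 more stood in intron 2. TNFRSF1A, the TNF receptor gene, held 4 in its first intron, with 10, 8, 8 and 11 fragments, after a promoter peak of 25.

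**Figure D5:**
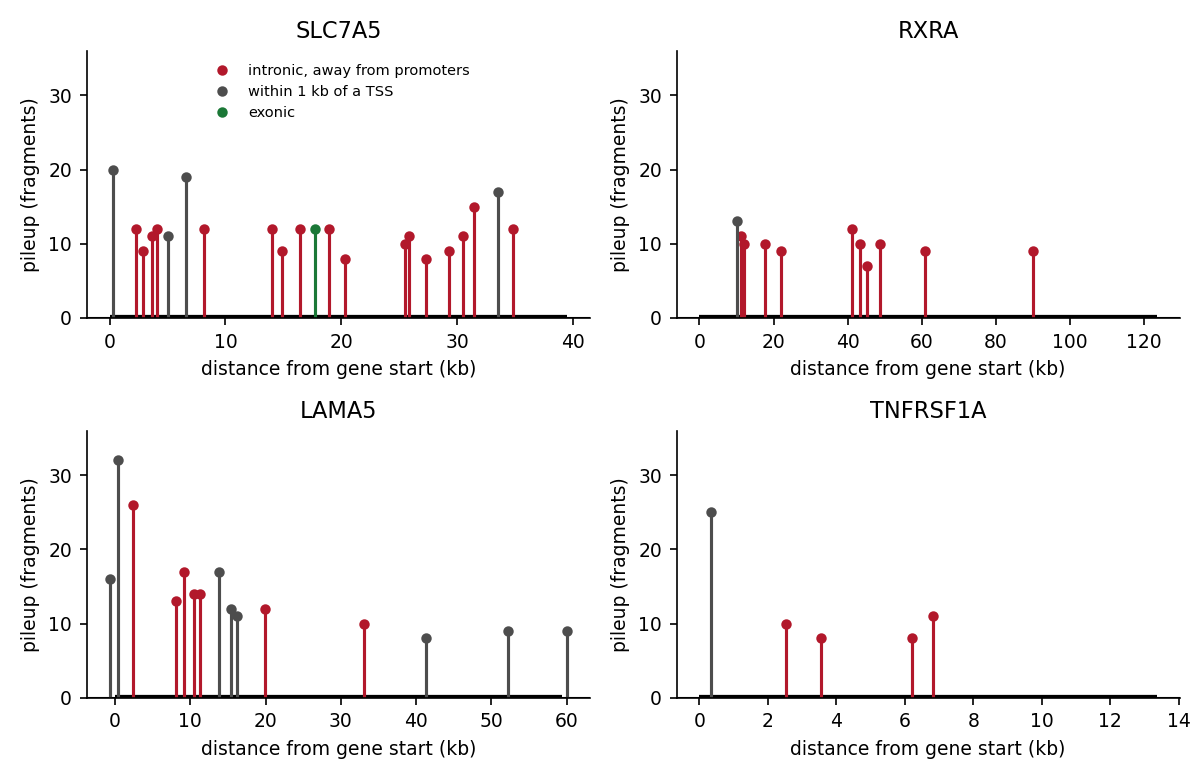
Pileup (fragments) of every peak along SLC7A5, RXRA, LAMA5 and TNFRSF1A against distance from the gene start (kb); red marks intronic peaks away from promoters, grey peaks within 1000 bp of a TSS and green an exonic peak, and the black line is the gene body. The 17 intronic peaks of SLC7A5 run along most of its length at 8 to 15 fragments, while those of TNFRSF1A lie within 6816 bp of its start.

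Smaller runs were found in PLEC, the plectin gene, and RASA3, a RAS GTPase-activating protein gene, with 5 intronic peaks each, of 9 to 15 and 8 to 11 fragments. NAV1, the nuclear factor gene NFIC, BAHCC1 and the elongation factor gene ELL held 4 each. BAHCC1 had at most 10 fragments in its introns and 43 at its promoter, NFIC at most 11 and 30, and ELL at most 10 and 26. NAV1 had up to 14 in its introns and 10 at its promoter. Peaks close together were common in general. Another peak of any class lay within 5000 bp of 358 intronic summits (49.6%, 45.9 to 53.3), against 49.7% (44.04 to 55.3) at lncRNA starts, 43.8% (39.2 to 48.5) of intergenic, 43.1% (36.6 to 49.7) of exonic and 39.4% (38.2 to 40.6) of protein-coding start summits. Of these, only the last interval lay apart from the intronic one. Among the 263 peaks whose host had no promoter summit this was so for 39 (14.8%).

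Nuclear receptor and liver factor genes were among the listed groups with intronic peaks in the largest shares. Such a peak was found in 7 of 41 genes (17.1%, 7.15 to 32.1), against 3.0% of all genes. RARG, a retinoic acid receptor gene, had 14 fragments in intron 3, NR2F6 at most 13 in 2 peaks, and RXRA the run of 10 described above. PPARD, NR2F2, ONECUT2 and RARA had 10, 9, 10 and 8 fragments. The median length of the listed genes was 36026 bp. Counts for the groups have no test here, and a group of long genes has more intronic sequence in which a peak can lie.

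Signalling genes followed. For WNT, TGF-beta, Notch and Hippo signalling the count was 10 of 58 (17.2%, 8.59 to 29.4), the most significant in SKI, SMAD3 and the Hippo kinase gene LATS2 with 14 fragments. NOTCH1 held 3 low peaks of 7 to 9 fragments. For receptor tyrosine kinase, RAS and PI3K signalling it was 8 of 63 (12.7%, 5.65 to 23.5). There the most significant were those of EGFR, the kinase gene MAP3K1 with 16 fragments and PIK3C2B with 15, and EPHA2, an ephrin receptor gene, had 19 over a raised background. IGF1R, a growth factor receptor gene, held 2 with at most 10 fragments.

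Adhesion and matrix genes had an intronic peak in 8 of 49 (16.3%, 7.32 to 29.7), the most significant in LAMA5, the integrin gene ITGA3 with 11 fragments and COL4A2 with 9, while AGRN had 12 over a raised background. Genes of lipid and glucose metabolism had 8 of 47 (17.02%, 7.65 to 30.8), all low. The glycolytic enzyme gene ENO1 reached 11 fragments and the desaturase gene SCD 9, where their promoters had 29 and 31. Developmental transcription factor genes had 11 of 77 (14.3%, 7.35 to 24.1), the most significant in ZBTB7A with 17 fragments, FOXK1 with 12 and TFAP2A with 13. The groups of small GTPase regulators and actin genes, 7 of 60 (11.7%, 4.82 to 22.6), and RNA-binding factors, 5 of 44 (11.4%, 3.79 to 24.6), came next. In the first the most significant peaks were those of ARHGAP35, PLEC with 15 fragments and VAV2 with 13, while MYH9 had 16 over a raised background. In the second the splicing factor gene SRSF3 had 18, IGF2BP1 12 and MSI2 11.

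In the other groups the interval of the share included that of all genes. Chromatin regulators had an intronic peak in 2 of 83 (2.41%, 0.293 to 8.43), BAHCC1 among them, although 46 of them (55.4%) had a promoter peak. Ubiquitin ligases and turnover genes had none in 29 (upper bound 11.9%), with a promoter peak at 22 (75.9%). Cyclins, CDKs and their inhibitors had 2 of 30, CDKN2C and CDKN2A with at most 13 and 8 fragments. Neuronal and synaptic genes, whose median length was 1114600 bp, had 2 of 32 (6.25%, 0.766 to 20.8), GRIN1 and CACNA1A with 8 fragments each.

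Listed markers of cell types had no intronic peak at this depth, in lists so short that the 3.0% of all genes amounts to under 1 gene each. The count was 0 of 29 hepatocyte secreted protein genes (upper bound 11.9%), 0 of 25 blood cell markers (13.7%) and 0 of 19 fibroblast and endothelial markers (17.6%). Promoter peaks were at 0, 0 and 1 of these genes, against 30.8% of all protein-coding genes. Peaks do not measure expression, so these lists do not check the labelled cell type.

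By chromosome, the rate per Mb of admitted intronic sequence was highest on chromosome 19, with 2.76 (2.12 to 3.54), and chromosome 16, with 2.0 (1.54 to 2.56). It was lowest on chromosome 4, with 0.0923 (0.0339 to 0.201), and on X, with 0.130 (0.0476 to 0.282). The 17 peaks of SLC7A5 are part of the 63 on chromosome 16. The share of a chromosome's peaks that were intronic ran from 4.11% on chromosome 4 to 13.9% on chromosome 19. The share on the lowest background ran from 46.7% on chromosome 3 to 100% on chromosomes 4 and X, with 6 peaks each.

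Extents of the peaks qualify the name of the class. Although every summit was intronic and more than 1000 bp from a TSS, 107 peaks (14.8%) reached within 1000 bp of a TSS with an edge, 74 (10.2%) touched a protein-coding exon and 4 covered a TSS. Neither an exon nor such a window was touched by 564 (78.1%, 74.9 to 81.1). A summit lay within 200 bp of an exon of its transcript in 70 cases (9.70%).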

How the data were processed

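ChIP-seq with an ING5 antibody was analysed from the 1 deposited peak list; the input entered only as its control. Peaks were called with MACS2 2.1.1.20160309 on paired ends with 1e-05 as the p threshold, per the file headers. Per the submitters' processing notes, fastp 0.19.6, Bowtie2 and deepTools were also used. The deposited pileup is a coverage signal in fragments, unscaled. The deposited significance is −log10 p; −log10 q was deposited too, although the headers say it was not calculated, and was not used. Fold enrichment was deposited as a ratio on a linear scale by the authors' caller, with 1 added to pileup and background, from which local background was recovered; values within 0.001 of the lowest counted as lowest. These values describe and rank peaks within this list alone.

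The labels name GRCh37, but the list uses GRCh38 sequence names, and positions were read as GRCh38. Exons came from GENCODE 44 in its version mapped to GRCh37, at the GRCh38 positions this version records. Of its 1650930 exon records, 17391 had no such position and were left out. Transcripts absent from the mapped version could not enter, so their starts and exons were not counted. No GRCh38 genome sequence was used, so peak sequence and motifs were not analysed; sequences shown are from RefSeq tables (GRCh38.p14).

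A host was the named, then the shortest, protein-coding gene over the summit. The intron was read from its canonical transcript, or else from the one with the most exons. Admitted sequence is every intronic base that meets the rule. Placement was tested on simulated protein-coding genes of 1 transcript each and put 300 of 300 peaks in the right class. Alternative starts, overlapping hosts and lncRNA genes were not simulated, so the score does not cover them. Python 3.11.15, pandas 2.3.3 and scipy 1.17.1 were used. No test was made: each group has 1 library, and peaks are not replicates. Named peaks were the 20 most significant, the 10 with the highest fold, the 5 longest, the 5 farthest from a TSS, 3 on each side of the limit, those near hairpins, hosts with many peaks and up to 3 hosts per list; the others named were chosen after their values were seen. Members and lists were chosen with earlier results of these data known. Alternatives changed the distance, the TSS set, the transcripts, the peaks kept or the regions left out. A few listed genes are not reported here by name.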

Additional observations from a re-analysis of the deposited data

How the results depend on the processing

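Each of 7 results was recomputed under 10 alternatives, of which 2 (RefSeq starts counted as TSSs, SLC7A5 left out) were chosen after seeing the data; in those 2, with TSSs of every gene type and with canonical transcripts alone, the number of peaks was 701, 705, 717 and 703 and the 6 other results stayed within their intervals. A limit of 500 bp gave 1493 peaks (18.4% of the list), median fold 5.94, median length 290 bp, median distance 973 bp, 70.6% in first introns and 38.3% of hosts with a promoter peak, the promoter window being 500 bp too. A limit of 3000 bp gave 298 peaks (3.67%), 221 bp, 9442 bp and 33.9% in first introns. The 4294 most significant peaks gave 157 (3.83%), fold 7.55, length 407 bp, distance 1574 bp and 74.5%. Peaks on the lowest background alone gave a share of 10.1%, 234.5 bp and 49.5% of hosts with a promoter peak. Whole peaks outside exons and TSS windows gave 6.95%, 233 bp and 2932.5 bp. With no region left out the share was 9.93% and the distance 2594 bp. Each setting keeps other peaks by construction; further causes were not tested. No paired analysis was possible because each group has 1 library. A pileup of 7 to 11 fragments, where most of these peaks lie, limits what the depth can show: weaker peaks are not called.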

Other observations

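Of the 722 intronic summits, 39 (5.40%) lay in the body of a lncRNA gene and 7 in a lncRNA exon, among them the TFAP2A peak in TFAP2A-AS2 with 13 fragments and the DLGAP1 peak in DLGAP1-AS1 with 10. A single summit lay in an exon annotated as a pseudogene, in MORF4L1, with 10 fragments over the lowest background. The raised backgrounds beyond TRPC6 included 2.50 fragments under the peaks of NFE2L2, the oxidative stress regulator gene, and TTC9C, with 15 fragments and 4.57-fold each. More than 1 protein-coding gene held 32 of the summits (4.43%). These genes were named after their values were seen.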
